A study of Mus musculus with 20 samples.

Results

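Cabp5, Lhx4, Pcp2 and Prkca are genes used as markers of retinal bipolar cells, and their transcripts were followed in whole mouse retina across 5 genotypes. They were chosen by symbol, and they are 4 of the 1865 genes that appear in at least 1 of the 2 expression tables of the study. Cabp5 and Lhx4 had a row at both ages, Pcp2 only in the table of postnatal day 2 (P2, 566 genes) and Prkca only in the table of postnatal day 21 (P21, 1497 genes), so 3 of the 4 could be read at each age. Pcp2 at P21 and Prkca at P2 were not analysed here.

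The study sequenced RNA of retinas that carry mutations in Crx or Nrl, which encode transcription factors of photoreceptors. CrxRip/+ retinas carry 1 copy and CrxRip/Rip retinas 2 copies of Rip, a dominant mutant allele of Crx. Crx-/- retinas lack functional Crx, Nrl-/- retinas lack functional Nrl, and wild-type retinas are the controls. All mice had the C57BL/6J strain label, and each genotype was sampled at P2 and at P21. A group held 2 samples and each sample pooled 2 frozen retinas, which gives 20 samples in 10 groups. The alleles are germline and the tissue is whole retina, so rods, cones, bipolar cells and all other retinal cells contribute to every value. With 2 pools per group, p values measure the spread between pools, and whether the pools came from separate litters is not given in the sources used here.

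Bipolar cells carry the signals of rods and cones to the inner retina. They are born after birth in the mouse, from the same late progenitors that give rods, and OTX2 is needed for both photoreceptors and bipolar cells. Rod bipolar cells contact rods and several types of cone bipolar cell contact cones. Lhx4 encodes a LIM homeodomain transcription factor of cone bipolar cells that is also found in developing cones. Cabp5 encodes a calcium-binding protein of the calmodulin family found in rod bipolar and some cone bipolar cells. Prkca encodes protein kinase C alpha, the classical marker of rod bipolar cells, where it shapes the light response. Pcp2, first known from cerebellar Purkinje cells, encodes a GoLoco-domain protein that binds the Go alpha subunit and is found in ON bipolar cells.

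The 4 transcripts lie at separate places in the GRCm38 genome. Cabp5 (NM_013877, 6 exons) spans chr7:13398132-13408887 on the plus strand, 2.46 megabases from Crx on the same chromosome. Lhx4 (NM_010712, 6 exons) spans chr1:155698031-155742027, Pcp2 (NM_008790, 4 exons) chr8:3623377-3625282 and Prkca (NM_011101, 17 exons) chr11:107933387-108343928, all 3 on the minus strand. CRX, which is mutated in 3 of the genotypes, and its relative OTX2 bind DNA with the core TAATCC, so the 250 bases upstream of each start site were searched for it. The sequences of Cabp5 and Lhx4 are shown because the ratio of their levels differed from wild type, as described further on. At P2 it did so in every mutant, Nrl-/- included, so that split is not particular to the Crx mutants. In both CrxRip genotypes at P2, Cabp5 was called lower and Lhx4 was not called. At P21 the ratio stood apart in CrxRip/Rip. The sequences are from RefSeq promoters of GRCm38.p6 and are written on the strand of the gene, with TAATCC in capitals. They cover chr7:13397905-13398131 (plus) and chr1:155742028-155742277 (minus). The Cabp5 sequence stops where the annotated transcript starts, 23 bases before the RefSeq start site.
Cabp5: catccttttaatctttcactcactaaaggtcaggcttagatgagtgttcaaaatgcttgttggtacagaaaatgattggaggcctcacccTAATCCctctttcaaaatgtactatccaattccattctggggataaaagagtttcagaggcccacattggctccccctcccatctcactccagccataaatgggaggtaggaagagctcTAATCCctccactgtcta
Lhx4: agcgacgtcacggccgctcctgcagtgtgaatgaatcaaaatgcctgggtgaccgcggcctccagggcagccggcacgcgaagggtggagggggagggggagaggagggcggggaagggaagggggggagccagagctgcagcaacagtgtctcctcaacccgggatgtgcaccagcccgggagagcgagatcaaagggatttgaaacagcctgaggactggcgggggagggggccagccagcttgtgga

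Cabp5 held TAATCC at 2 places, from -160 to -155 and from -41 to -36 relative to the RefSeq start site, both on the strand of the gene. Lhx4, Pcp2 and Prkca held neither TAATCC nor its reverse complement GGATTA in their windows. Over 32851 mouse promoter windows of the same length, 6.25% held at least 1 copy of this core on either strand and 0.3% held 2 or more. The homeodomain core TAATTA, which does not overlap TAATCC at any of these sites, was found only in the Pcp2 window (from -101 to -96) and in 4.84% of all windows. TGCTGA, the core of the NRL site (reverse complement TCAGCA), was in none of the 4 windows and in 16.08% of all. These are letter matches in 1 short window per gene, and binding was not measured.

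Values are FPKM, fragment counts scaled to transcript length and to the mapped fragments of the library, rounded by the authors to 1 decimal. FPKM is per length, so levels can be compared between genes, but the sequencing depth of the samples is unknown. Over the genes listed, FPKM summed to between 4168.3 and 5777.3 per sample at P2 and between 21569.4 and 55335.3 at P21. Differences are given as log2(FPKM + 1) of the first genotype named minus the second, with the standard error (SE) and p values from limma adjusted by Benjamini-Hochberg over the table. A difference was called at an adjusted p under 0.05. With 2 samples in either group, the smallest p that exact permutation can give is 0.33 (two-sided), and each call therefore leans on limma's pooled estimate of the spread. The 4 comparisons with wild type at an age share the same 2 wild-type samples.

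The label of the 4 genes could hardly be checked. Of 12 defining bipolar markers, 4 had a row at P2 (Cabp5, Pcp2, Lhx4 and Trpm1) and 4 at P21 (Otx2, Cabp5, Prkca and Lhx4). The 12 markers include the 4 genes themselves, so only Trpm1 at P2 and Otx2 at P21 are separate from them. The other markers were not analysed here. Both tables hold only genes that passed a threshold of the authors in at least 1 comparison. All 566 and all 1497 genes had such a comparison. Its authors' log2 fold change was at least 1 in size and its authors' adjusted p was under 0.05. The higher of the 2 genotype means in it was at least 2 FPKM. In the authors' deposited tables, the number of the 10 comparisons past that threshold was 6 for Cabp5, 3 for Lhx4 and 4 for Pcp2 at P2, and 7 for Cabp5, 4 for Lhx4 and 1 for Prkca at P21. All of those of Lhx4 and Pcp2 are comparisons with Nrl-/-, and that of Prkca is CrxRip/Rip against wild type. Those of Cabp5 at P2 set each Crx mutant against wild type or against Nrl-/-, and at P21 each involves CrxRip/Rip or Nrl-/-. Without these differences the 4 genes would not have had their rows, so they are no separate results.

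At P2, Cabp5 was lower in all 3 Crx mutants and the other genes were not. Lhx4 and Pcp2 were higher in Nrl-/- retina, by 2.58 and 3.58 times in mean FPKM, and Lhx4 was also higher in Crx-/- retina. Over the 4 mutants, 7 of the 12 differences from wild type were called, 4 higher and 3 lower.

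These counts stand beside a background that differs between the mutants. In CrxRip/+ against wild type at P2, 1 of the 3 genes was called (Cabp5) and 16.4% of all genes in the table were. In CrxRip/Rip it was 1 of 3 (Cabp5), beside 27% of all genes. In Crx-/- it was 3 of 3, beside 29.9%. In Nrl-/- it was 2 of 3, beside 83.6%, so a call there sets a gene apart very little. The direction of Lhx4 and Pcp2 in Nrl-/- is no separate result, because all of their comparisons past the authors' threshold at P2 are with Nrl-/-. The medians of all genes were -0.02 in CrxRip/+ retina, -0.06 in CrxRip/Rip and -0.14 in Crx-/-. In Nrl-/- the median was -0.77, and it became -0.04 when samples were rescaled by the median of ratios. With the scaling implied by the authors' fold changes, here called the authors' scaling, it was -0.66. The plots of FPKM by genotype show every sample of each gene at each age.

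**Figure D1:**
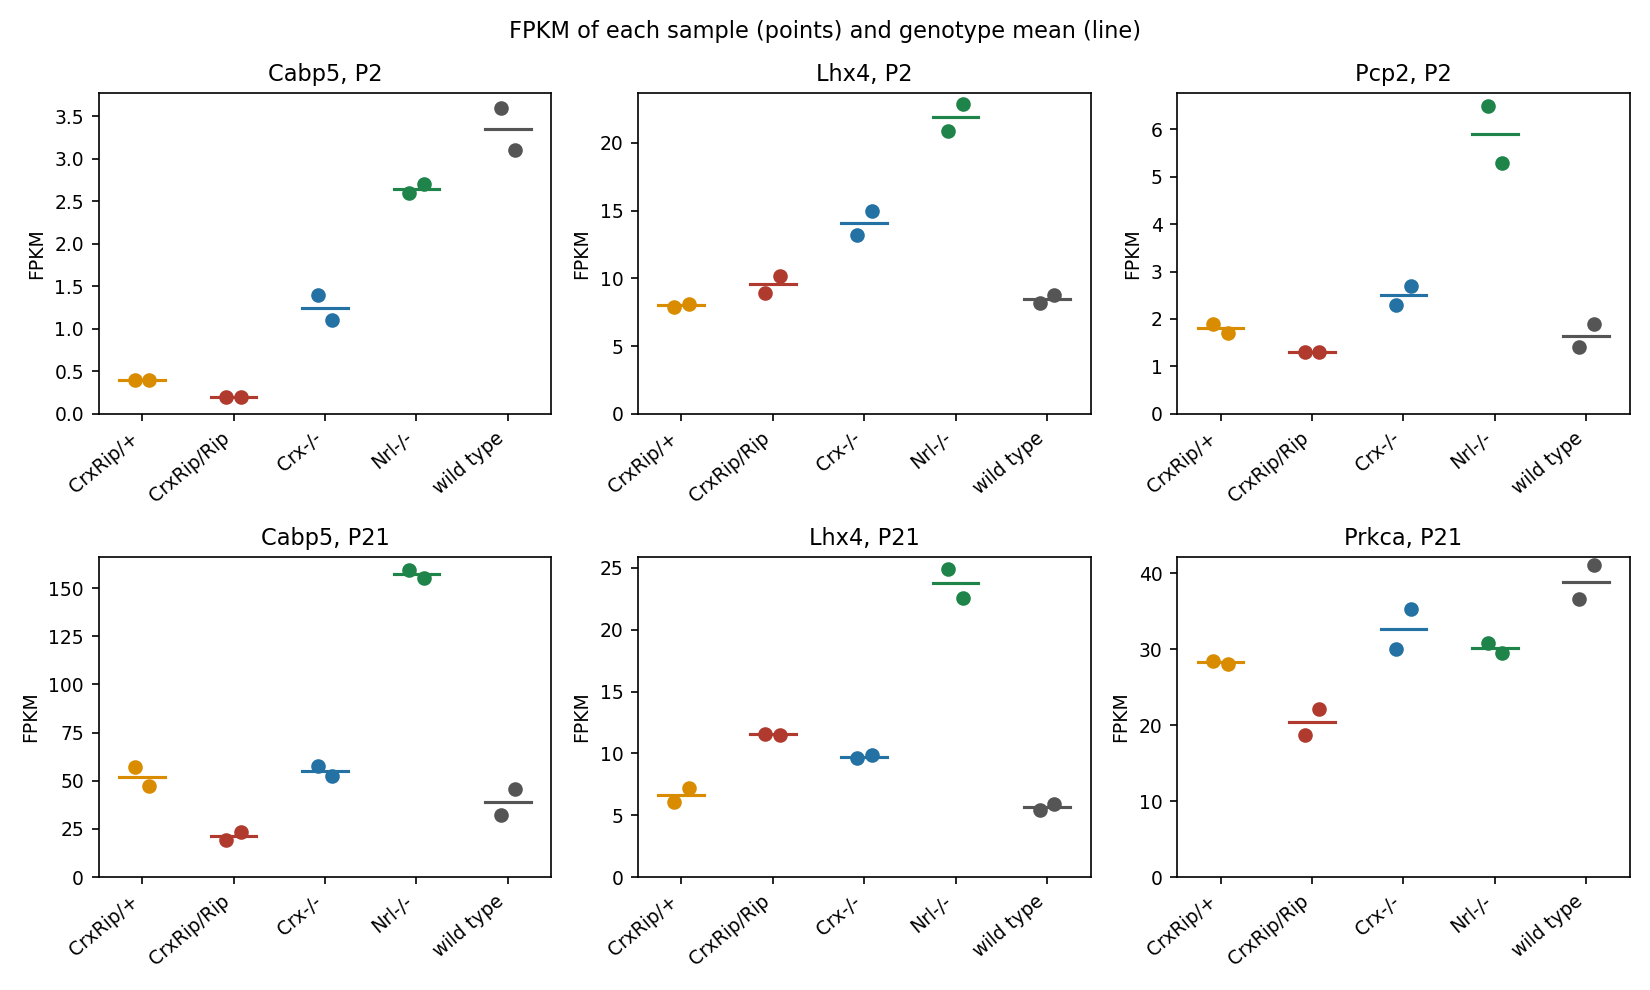
FPKM (y axis, linear, from 0) of each gene in each sample (points, 2 per genotype) with the genotype mean (line), at P2 in the upper row and at P21 in the lower row. Cabp5 at P2 lay at 0.2 to 0.4 in CrxRip/+ and CrxRip/Rip retina, against 3.1 and 3.6 in wild type, and at P21 it lay at 155.0 and 159.1 in Nrl-/- retina, against 32.5 and 45.6 in wild type.

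Cabp5 at P2 measured 0.4 and 0.4 FPKM in CrxRip/+ retina, 0.2 and 0.2 in CrxRip/Rip, 1.4 and 1.1 in Crx-/-, 2.6 and 2.7 in Nrl-/-, and 3.6 and 3.1 in wild type. No 2 of the 5 genotypes overlapped, and both CrxRip genotypes sat at the bottom. The differences of each Crx mutant from wild type are among those that gave Cabp5 its row, so they are no separate result. Relative to wild type, its mean FPKM was 8.38 times lower in CrxRip/+ retina, where the log2 difference was -1.63 ± 0.11 (SE; limma adjusted p = 3.87e-05). It was 16.8 times lower in CrxRip/Rip retina, with a log2 difference of -1.86 ± 0.11 (limma adjusted p = 8.99e-06). At 0.2 to 0.4 FPKM a step of the rounding is a large part of the value, and the log2(FPKM + 1) scale understates such falls. With a pseudocount of 0.1 the log2 differences became -2.78 in CrxRip/+ and -3.52 in CrxRip/Rip.

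Crx-/- retina kept more Cabp5 than either CrxRip genotype at P2. Its mean was 2.68 times lower than wild type, a log2 difference of -0.95 ± 0.11 (limma adjusted p = 0.000568). Nrl-/- retina differed from wild type by -0.25 ± 0.11, which was not called (limma adjusted p = 0.0551). That value turned to 0.57 (limma adjusted p = 0.00235) with the median of ratios, but with the authors' scaling it was -0.12 (limma adjusted p = 0.309). From high to low the order was wild type, Nrl-/-, Crx-/-, CrxRip/+ and CrxRip/Rip, and the pairs Nrl-/- with wild type and CrxRip/Rip with CrxRip/+ were not called apart.

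Lhx4, the cone bipolar transcription factor, was the most abundant of the 3 genes at P2. It measured 7.9 and 8.1 FPKM in CrxRip/+ retina, 8.9 and 10.2 in CrxRip/Rip, 13.2 and 15.0 in Crx-/-, 20.9 and 22.9 in Nrl-/-, and 8.2 and 8.8 in wild type. Nrl-/- and Crx-/- samples lay above all others, CrxRip/+ samples lay just below wild type and CrxRip/Rip samples just above it. The log2 difference from wild type was 1.27 ± 0.11 in Nrl-/- (limma adjusted p = 2.61e-05), or 2.27 with the median of ratios and 1.44 with the authors' scaling. In Crx-/- the log2 difference was 0.67 ± 0.11 (limma adjusted p = 0.00279). It was -0.08 ± 0.11 in CrxRip/+ (95% interval -0.32 to 0.17) and 0.15 ± 0.11 in CrxRip/Rip (95% interval -0.10 to 0.40), neither of them called. The order was Nrl-/-, Crx-/-, CrxRip/Rip, wild type and CrxRip/+, with no call between neighbours among the last 3.

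Pcp2, the Go-binding protein of ON bipolar cells, was low at P2. It measured 1.9 and 1.7 FPKM in CrxRip/+ retina, 1.3 and 1.3 in CrxRip/Rip, 2.3 and 2.7 in Crx-/-, 6.5 and 5.3 in Nrl-/-, and 1.4 and 1.9 in wild type. Nrl-/- samples stood clear of the rest, and CrxRip/+ overlapped wild type. The log2 difference from wild type was 1.38 ± 0.13 in Nrl-/- (limma adjusted p = 3.25e-05), or 2.24 with the median of ratios and 1.53 with the authors' scaling. In Crx-/- it was 0.41 ± 0.13 (limma adjusted p = 0.0433), and this call was lost in 7 of 17 alternative settings, among them without either Crx-/- sample (limma adjusted p = 0.0794 and 0.209) and without wild-type replicate 1 (0.21). In CrxRip/+ it was 0.09 ± 0.13 and in CrxRip/Rip -0.20 ± 0.13, neither of them called. The order was Nrl-/-, Crx-/-, CrxRip/+, wild type and CrxRip/Rip, and Nrl-/- was the one genotype called apart from its neighbour.

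At P21 the pattern had another shape. Cabp5 and Lhx4 were about 4 times higher in Nrl-/- retina than in wild type, Cabp5 and Prkca were both lower in CrxRip/Rip retina, and Lhx4 was higher there. Of 12 differences from wild type 10 were called, 6 higher and 4 lower.

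At P21 a call was common over all genes. In CrxRip/+ against wild type 2 of the 3 genes were called, beside 74.5% of all genes. In CrxRip/Rip it was 3 of 3, beside 80.6%. In Crx-/- it was 2 of 3, beside 81.3%, and in Nrl-/- 3 of 3, beside 72.2%. None of these shares stands apart from the background. The median log2 difference of all genes was 0.13 for CrxRip/+, -0.14 for CrxRip/Rip, -0.04 for Crx-/- and 0.17 for Nrl-/-. The plot of mutant-minus-wild-type differences sets both ages side by side.

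**Figure D2:**
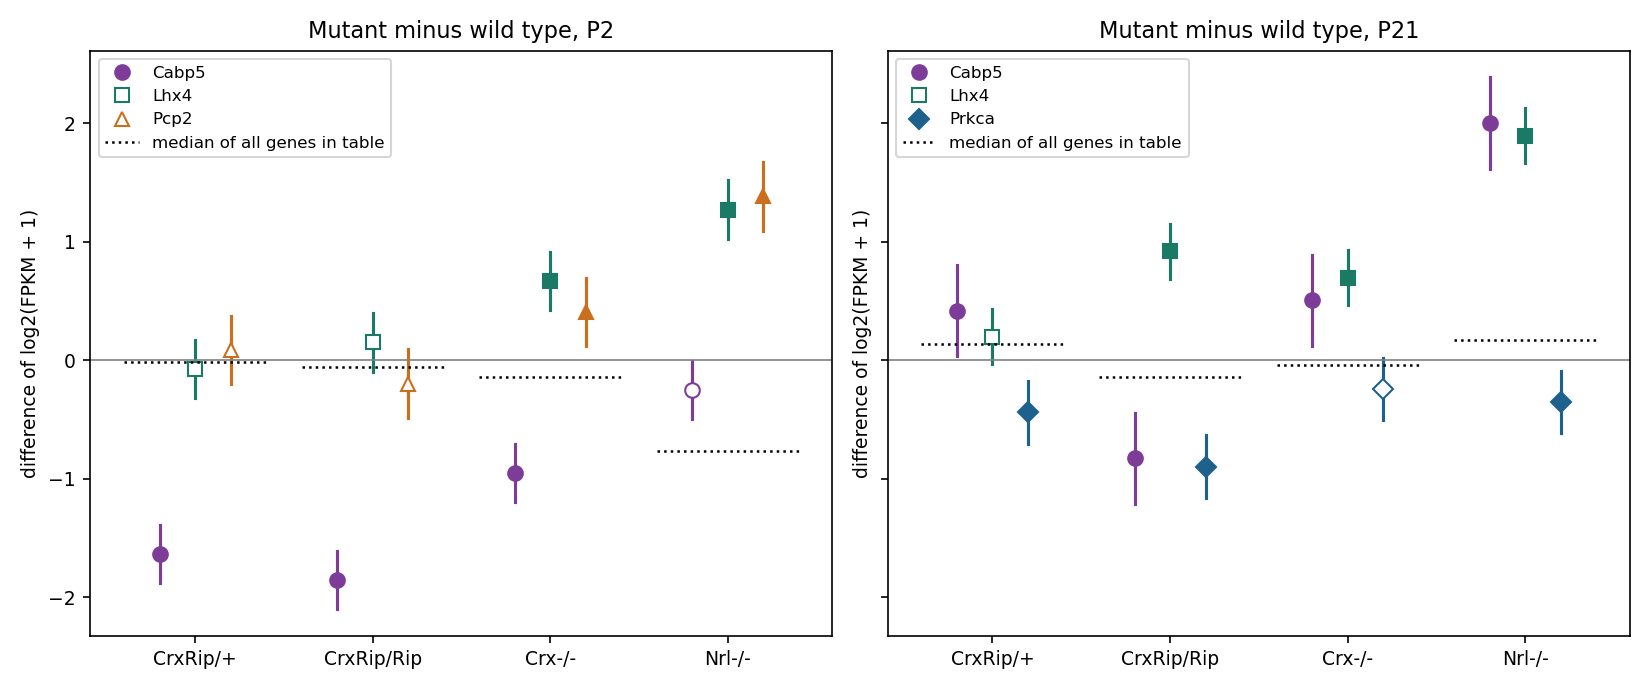
Difference of log2(FPKM + 1), mutant minus wild type (y axis), for each gene and mutant at P2 (left) and P21 (right), with 95% limma confidence intervals (bars), filled symbols where called at an adjusted p under 0.05 and open ones where not, and the median of all genes in the table (dotted). Cabp5 in CrxRip/Rip was below 0 at both ages (-1.86 at P2 and -0.83 at P21), and Prkca was below 0 in all 4 mutants at P21.

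Cabp5 at P21 measured 56.9 and 47.1 FPKM in CrxRip/+ retina, 19.4 and 23.2 in CrxRip/Rip, 57.5 and 52.6 in Crx-/-, 159.1 and 155.0 in Nrl-/-, and 32.5 and 45.6 in wild type. Nrl-/- samples were far above and CrxRip/Rip samples below all others, while CrxRip/+ and Crx-/- overlapped each other. The differences of Nrl-/- and CrxRip/Rip from wild type passed the authors' threshold, so they are no separate result. In Nrl-/- retina the mean was 4.02 times wild type, a log2 difference of 2.00 ± 0.17 (limma adjusted p = 1.36e-05). In CrxRip/Rip it was 1.83 times lower than wild type, a log2 difference of -0.83 ± 0.17 (limma adjusted p = 0.00179).

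CrxRip/+ and Crx-/- retinas averaged 1.33 and 1.41 times wild type for Cabp5 at P21. Both were called higher, but neither call held in every setting. The log2 difference was 0.42 ± 0.17 in CrxRip/+ (limma adjusted p = 0.0499) and 0.50 ± 0.17 in Crx-/- (limma adjusted p = 0.022). The CrxRip/+ call was lost in 12 of 17 alternative settings, among them without wild-type replicate 1 (0.18, limma adjusted p = 0.344) and without CrxRip/+ replicate 1 (0.28, limma adjusted p = 0.231). The Crx-/- call was lost in 5, among them without wild-type replicate 1 (0.26, limma adjusted p = 0.168), without Crx-/- replicate 1 (0.44, limma adjusted p = 0.109) and without Crx-/- replicate 2 (0.57, limma adjusted p = 0.0507). With the scaling implied by the authors' fold changes, both calls ended, at 0.20 in CrxRip/+ and 0.28 in Crx-/- (limma adjusted p = 0.299 and 0.153). The order was Nrl-/-, Crx-/-, CrxRip/+, wild type and CrxRip/Rip, with no call between Crx-/- and CrxRip/+.

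Lhx4 at P21 measured 6.1 and 7.2 FPKM in CrxRip/+ retina, 11.6 and 11.5 in CrxRip/Rip, 9.6 and 9.9 in Crx-/-, 24.9 and 22.6 in Nrl-/-, and 5.4 and 5.9 in wild type. No mutant overlapped wild type. All comparisons of Lhx4 past the authors' threshold at P21 are with Nrl-/-, so its difference there is no separate result. Relative to wild type the mean was 4.2 times higher in Nrl-/- (log2 difference 1.90 ± 0.10, limma adjusted p = 1.14e-06), 2.04 times in CrxRip/Rip (0.92 ± 0.10, limma adjusted p = 5.13e-05) and 1.73 times in Crx-/- (0.69 ± 0.10, limma adjusted p = 0.000262). CrxRip/+ differed by 0.20 ± 0.10, which was not called (limma adjusted p = 0.102), although without CrxRip/+ replicate 1 the value was 0.30 and was called (limma adjusted p = 0.0359). With the authors' scaling it was 0.01 (limma adjusted p = 0.926) and with the median of ratios 0.05 (limma adjusted p = 0.679). The order was Nrl-/-, CrxRip/Rip, Crx-/-, CrxRip/+ and wild type, with no call between CrxRip/Rip and Crx-/- or between CrxRip/+ and wild type.

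Prkca, the rod bipolar kinase, had its highest P21 values in wild type. It measured 28.4 and 28.1 FPKM in CrxRip/+ retina, 18.7 and 22.1 in CrxRip/Rip, 30.0 and 35.3 in Crx-/-, 30.8 and 29.5 in Nrl-/-, and 36.6 and 41.0 in wild type. All 8 mutant samples lay below both wild-type samples, and CrxRip/Rip lay lowest. The mean in CrxRip/Rip was 1.9 times lower than in wild type, a log2 difference of -0.90 ± 0.12 (limma adjusted p = 0.000128). That comparison is the only one in which Prkca passed the authors' threshold, so it is no separate result.

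The other Prkca differences at P21 were smaller and depended on single samples or on the scaling. In CrxRip/+ the log2 difference was -0.44 ± 0.12 (limma adjusted p = 0.0079), and without wild-type replicate 2 it was -0.36 and not called. With the median of ratios it was -0.615 and with the authors' scaling -0.653, both called (limma adjusted p = 0.0014 and 0.00097). In Nrl-/- it was -0.35 ± 0.12 (limma adjusted p = 0.0231). The call ended without wild-type replicate 2 (-0.27), without Nrl-/- replicate 1 (-0.38) and without Nrl-/- replicate 2 (-0.32). It stayed with the median of ratios (-0.58, limma adjusted p = 0.00203) and with the authors' scaling (-0.46, limma adjusted p = 0.00657). In Crx-/- the difference was -0.24 ± 0.12, not called (limma adjusted p = 0.0781). It was called with the authors' scaling (-0.47, limma adjusted p = 0.00512) and with the median of ratios (-0.30, limma adjusted p = 0.0378). Without Crx-/- replicate 2 it was -0.36 and also called. With either rescaling Prkca was thus called lower in each mutant. The order was wild type, Crx-/-, Nrl-/-, CrxRip/+ and CrxRip/Rip, and CrxRip/Rip with CrxRip/+ was the one pair of neighbours called apart.

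Photoreceptor transcripts moved in the same samples. The 18 rod genes, all of them in the P21 table, summed to between 1242.2 and 1343.4 FPKM in CrxRip/+ retina, 672.8 and 683.1 in CrxRip/Rip, 1766.0 and 2019.0 in Crx-/-, 2120.5 and 2186.8 in Nrl-/-, and 20930.2 and 22282.9 in wild type. All 18 were lower in each of the 4 mutants. The 14 of 15 cone genes in the P21 table summed to between 1104.2 and 1192.5 FPKM in CrxRip/+, 483.3 and 572.2 in CrxRip/Rip, 911.3 and 1036.1 in Crx-/-, 6875.6 and 7108.5 in Nrl-/-, and 746.2 and 806.9 in wild type. Nrl-/- retina, with the highest Cabp5 and Lhx4, thus had the highest cone sum, and CrxRip/Rip retina, with the lowest Cabp5 and Prkca, had the lowest rod and cone sums. In bulk retina, fewer cells of a type and less RNA per cell cannot be told apart. FPKM is a share of each library, and the part of the lost rod RNA in the levels of the bipolar genes was not tested.

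At P2 the photoreceptor sums followed a different order. The 13 of 15 cone genes in the table summed to between 214.9 and 250.8 FPKM in CrxRip/+ retina, 91.5 and 108.0 in CrxRip/Rip, 385.6 and 458.4 in Crx-/-, 548.9 and 550.2 in Nrl-/-, and 413.7 and 458.5 in wild type. The 12 of 18 rod genes summed to between 347.4 and 410.6 FPKM in CrxRip/+, 156.9 and 188.0 in CrxRip/Rip, 389.0 and 453.4 in Crx-/-, 53.7 and 55.6 in Nrl-/-, and 421.5 and 516.1 in wild type. Cone sums were lowest in the CrxRip genotypes, where Cabp5 was also lowest, and highest in Nrl-/-, where Lhx4 and Pcp2 were highest. Their part in these results was not tested.

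The mutants were also compared with each other, 6 pairs at each age. At P2, 14 of 18 differences were called, all of them lower in the first genotype of the pair, which was always a Crx mutant. CrxRip/Rip against CrxRip/+ gave 0 of 3 calls, beside 14.1% of all genes. The log2 differences there were -0.22 ± 0.11 for Cabp5, -0.28 ± 0.13 for Pcp2 and 0.23 ± 0.11 for Lhx4, with unadjusted p values from limma of 0.0702, 0.0545 and 0.0672, none under 0.05. Both CrxRip/Rip samples were below both CrxRip/+ samples for Cabp5, and the difference was negative in all 17 alternative settings. It was called with a pseudocount of 0.1 (-0.74, limma adjusted p = 0.0352) and in a fit of the 2 genotypes alone (-0.22, limma adjusted p = 0.0295).

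Against Crx-/- at P2, both CrxRip genotypes had less Cabp5 and less Lhx4. In CrxRip/+ against Crx-/-, 2 of 3 genes were called, beside 28.6% of all genes, with log2 differences of -0.68 ± 0.11 for Cabp5 (limma adjusted p = 0.00297) and -0.74 ± 0.11 for Lhx4 (limma adjusted p = 0.00208). Pcp2 was at -0.32 ± 0.13 and was not called (limma adjusted p = 0.0922). In CrxRip/Rip against Crx-/-, 3 of 3 were called, beside 41.3%, with -0.90 ± 0.11 for Cabp5, -0.60 ± 0.13 for Pcp2 and -0.52 ± 0.11 for Lhx4. The Lhx4 and Pcp2 calls of that pair ended without Crx-/- replicate 2 (limma adjusted p = 0.0512 and 0.052).

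Against Nrl-/- at P2, all 3 genes were lower in each of the 3 Crx mutants, 9 calls of 9. Lhx4 and Pcp2 have a row at P2 only through comparisons with Nrl-/-, so their calls here are no separate result. Cabp5 also passed the authors' threshold in each of these comparisons, so the same holds for its calls. The background was 85.7% of all genes in CrxRip/+ against Nrl-/-, 89.2% in CrxRip/Rip against Nrl-/- and 78.8% in Crx-/- against Nrl-/-. Pcp2 differed by -1.30 for CrxRip/+, -1.58 for CrxRip/Rip and -0.98 for Crx-/-, each with an SE of 0.13. Lhx4 differed by -1.35, -1.12 and -0.60 in the same order of mutants, and Cabp5 by -1.38, -1.60 and -0.70. The median of all genes was 0.75, 0.71 and 0.57. With the median of ratios it was 0.07, 0.08 and -0.03, and the differences became -2.12, -2.35 and -1.73 for Pcp2, -2.29, -2.01 and -1.44 for Lhx4, and -2.04, -2.23 and -1.36 for Cabp5. That scaling is set from these selected genes, so such a small median follows from the method. With the authors' scaling the median was 0.63, 0.58 and 0.46. The differences were then -1.45, -1.74 and -1.11 for Pcp2, -1.52, -1.30 and -0.75 for Lhx4, and -1.51, -1.74 and -0.82 for Cabp5.

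At P21, 13 of 18 differences between mutants were called, 1 higher and 12 lower. CrxRip/Rip against CrxRip/+ split the genes. The log2 difference was 0.72 ± 0.10 for Lhx4 (limma adjusted p = 0.000793), -1.25 ± 0.17 for Cabp5 (limma adjusted p = 0.000656) and -0.46 ± 0.12 for Prkca (limma adjusted p = 0.0131). All 3 of 3 were called there, beside 47% of all genes. Cabp5 passed the authors' threshold in this pair, so its call is no separate result. The Prkca call ended without CrxRip/Rip replicate 1 (-0.34, limma adjusted p = 0.0607) and with the median of ratios (-0.18, limma adjusted p = 0.275).

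In CrxRip/+ against Crx-/- at P21, 1 of 3 genes was called, beside 52.6% of all genes. Cabp5 differed there by -0.09 ± 0.17, with a 95% interval of -0.47 to 0.30, and the samples overlapped. The called gene was Lhx4, at -0.49 ± 0.10 (limma adjusted p = 0.00374). CrxRip/Rip against Crx-/- gave 2 of 3, beside 53.4%, with Cabp5 at -1.33 ± 0.17 and Prkca at -0.65 ± 0.12 (limma adjusted p = 0.000293 and 0.00179). Lhx4 was at 0.22 ± 0.10 in that pair and was not called (limma adjusted p = 0.0932). The Cabp5 difference of CrxRip/Rip from Crx-/- passed the authors' threshold, so it is no separate result.

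Against Nrl-/- at P21, Cabp5 and Lhx4 were lower in each of the 3 Crx mutants, and Prkca was lower in CrxRip/Rip. Lhx4 has a row at P21 only through comparisons with Nrl-/-, so its calls here are no separate result. Cabp5 also passed the authors' threshold in each of these comparisons, so the same holds for its calls. CrxRip/+ gave 2 of 3 calls beside 48.8% of all genes, CrxRip/Rip 3 of 3 beside 66.8%, and Crx-/- 2 of 3 beside 65.1%. Cabp5 differed from Nrl-/- by -1.58 in CrxRip/+, -2.83 in CrxRip/Rip and -1.50 in Crx-/-, each with an SE of 0.17. Lhx4 differed by -1.70, -0.98 and -1.20 in the same order, with an SE of 0.10. Prkca differed from Nrl-/- by -0.55 ± 0.12 in CrxRip/Rip (limma adjusted p = 0.0032), a call that ended with the median of ratios (-0.22, limma adjusted p = 0.137), and Crx-/- and Nrl-/- samples overlapped for Prkca.

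Ratios of 2 genes in the same sample do not depend on how libraries are scaled. At P2, Lhx4 over Cabp5 was 19.8 and 20.2 in CrxRip/+ retina, 44.5 and 51.0 in CrxRip/Rip, 9.43 and 13.6 in Crx-/-, 8.04 and 8.48 in Nrl-/-, and 2.28 and 2.84 in wild type. Every mutant sample was above both wild-type samples. The ratios of the CrxRip genotypes rest on Cabp5 values of 0.2 to 0.4 FPKM and are imprecise.

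At P21, Lhx4 over Cabp5 was 0.107 and 0.153 in CrxRip/+ retina, 0.598 and 0.496 in CrxRip/Rip, 0.167 and 0.188 in Crx-/-, 0.157 and 0.146 in Nrl-/-, and 0.166 and 0.129 in wild type. CrxRip/Rip stood above all other samples, and Nrl-/- lay inside the wild-type range although both genes were about 4 times wild type there. Prkca over Cabp5 was 0.499 and 0.597 in CrxRip/+, 0.964 and 0.953 in CrxRip/Rip, 0.522 and 0.671 in Crx-/-, 0.194 and 0.19 in Nrl-/-, and 1.13 and 0.899 in wild type. CrxRip/Rip was inside the wild-type range for this ratio and the other 3 mutants were below it.

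Prkca over Lhx4 at P21 was 4.66 and 3.9 in CrxRip/+ retina, 1.61 and 1.92 in CrxRip/Rip, 3.12 and 3.57 in Crx-/-, 1.24 and 1.31 in Nrl-/-, and 6.78 and 6.95 in wild type. All mutants were below wild type. No genotype overlapped another for this ratio, which is drawn with the others in the plot of ratios within samples.

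**Figure D3:**
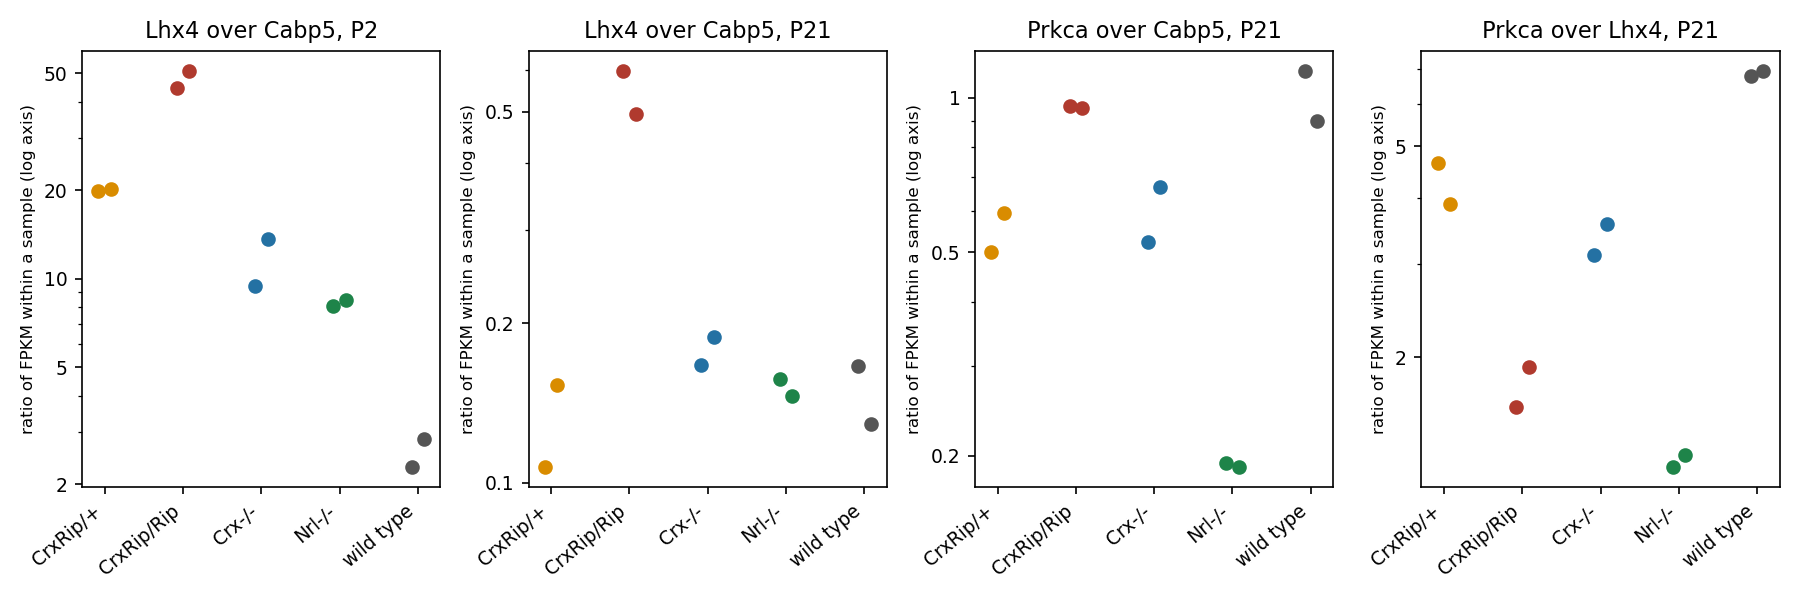
Ratio of the FPKM of 2 genes within a sample (y axis, log scale), for Lhx4 over Cabp5 at P2 and at P21, Prkca over Cabp5 at P21 and Prkca over Lhx4 at P21, with 1 point per sample and 2 samples per genotype. Lhx4 over Cabp5 at P2 was 44.5 and 51.0 in CrxRip/Rip retina, against 2.28 and 2.84 in wild type, and Prkca over Lhx4 at P21 was 1.24 and 1.31 in Nrl-/- retina, against 6.78 and 6.95 in wild type.

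The wider bipolar programme was read from 5 lists with 65 further genes, 18 of them in the P21 table and 5 in the P2 table. The lists cover transcription factors, the mGluR6 cascade of ON bipolar cells, rod bipolar, cone bipolar and synaptic genes. At each age 1 of the genes read is also in the rod or cone list. Several, such as Otx2, Neurod4, Gnb3 and Rgs9bp, also act in photoreceptors. The part of photoreceptor changes in the counts was not tested. At P21 the counts went both ways. In CrxRip/+ 6 of the 18 were higher, 7 lower and 5 not called, with a median of -0.26. In CrxRip/Rip 5 were higher, 12 lower and 1 not called (median -0.69), in Crx-/- 7, 9 and 2 (median 0.01), and in Nrl-/- 6, 4 and 8 (median 0.01). Over all 1497 genes, 591 were called higher and 524 lower in CrxRip/+, 544 and 663 in CrxRip/Rip, 596 and 621 in Crx-/-, and 605 and 476 in Nrl-/-. With the authors' scaling the CrxRip/+ count became 6 higher and 11 lower, and with the median of ratios Nrl-/- became 5 higher and 8 lower. The plot of bipolar list genes at P21 shows them with Cabp5, Lhx4 and Prkca, with 1 gene left out.

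**Figure D4:**
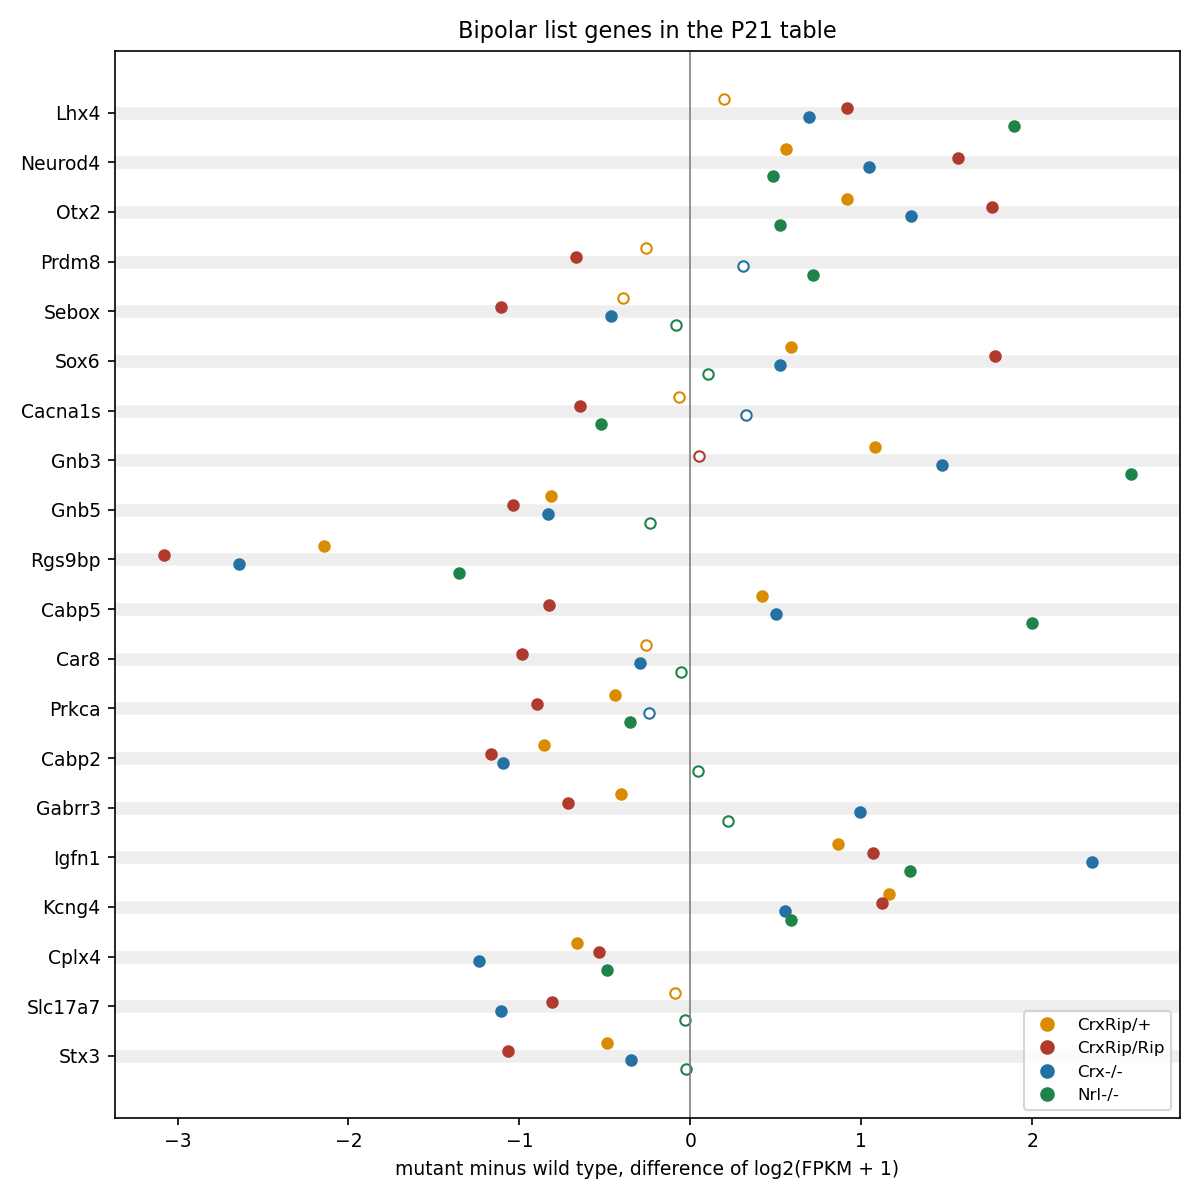
Difference of log2(FPKM + 1), mutant minus wild type (x axis), of the bipolar list genes in the P21 table (rows, 1 gene not shown), with 1 point per mutant, filled where called at a limma adjusted p under 0.05 and open where not. Otx2 and Neurod4 lay above 0 in all 4 mutants, Rgs9bp lay below 0 in all 4, and Cabp5, Lhx4 and Gnb3 reached 2.00, 1.90 and 2.58 in Nrl-/- retina.

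Of the 6 bipolar transcription factors in the P21 table, Lhx4 included, 3 were called higher and 0 lower in CrxRip/+, 4 and 2 in CrxRip/Rip, 4 and 1 in Crx-/-, and 4 and 0 in Nrl-/-. These counts over 6 genes stand beside the counts of all genes just given, which also had more calls higher than lower in CrxRip/+ and in Nrl-/-. Otx2, the homeobox gene needed for photoreceptor and bipolar fates, averaged 153 FPKM in CrxRip/+ retina, 276 in CrxRip/Rip, 199 in Crx-/-, 117 in Nrl-/- and 80.5 in wild type, called higher in all 4 mutants. Neurod4, a bHLH factor of bipolar cells that photoreceptors also express, averaged 76.1, 154, 107 and 72.2 FPKM in the mutants in the same order and 51.3 in wild type, called higher in all 4, although the Nrl-/- call ended with the median of ratios (limma adjusted p = 0.0731). Sox6, a SoxD factor of some bipolar types, was highest in CrxRip/Rip, at 8.55 ± 1.77 FPKM (SD, n = 2), against 1.75 ± 0.07 in wild type.

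In the mGluR6 cascade, Gnb3 and Rgs9bp moved apart at P21. Gnb3, the G protein beta subunit of ON bipolar cells and cones, averaged 257 FPKM in CrxRip/+ retina, 126 in CrxRip/Rip, 338 in Crx-/-, 728 in Nrl-/- and 121 in wild type. It was called higher in all mutants but CrxRip/Rip. Rgs9bp, the anchor of the RGS9 complex of photoreceptors, averaged 31.9, 16.3, 22.2 and 55.8 FPKM in the mutants in that order and 144 in wild type, called lower in all 4. Cabp2, a calcium-binding relative of Cabp5, was called lower in the 3 Crx mutants, at 1.55, 1.05 and 1.15 FPKM, against 3.6 in wild type, and was at 3.75 in Nrl-/-. Cplx4, the complexin of ribbon synapses, was called lower in all 4 mutants, between 85.4 and 145 FPKM, against 202 in wild type. Igfn1, listed among the cone bipolar genes, was called higher in all 4 and reached 20.9 ± 1.41 FPKM (SD, n = 2) in Crx-/-, against 3.3 ± 0.14 in wild type.

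At P2 only Gnb3, Irx6, Slc17a7, Stx3 and Trpm1 represented these lists. None of the 5 was called higher in a Crx mutant, and 2 were called lower in CrxRip/+, 3 in CrxRip/Rip and 1 in Crx-/- (medians -0.38, -0.84 and -0.24). Over all 566 genes, 21 were called higher and 72 lower in CrxRip/+, 33 and 120 in CrxRip/Rip, and 52 and 117 in Crx-/-. Gnb3 averaged 39.2 FPKM in CrxRip/+, 18.8 in CrxRip/Rip, 116 in Crx-/-, 147 in Nrl-/- and 104 in wild type. It was called lower in both CrxRip genotypes and higher in Nrl-/-, whereas in Crx-/-, where Cabp5 fell and Lhx4 rose, it was not called. Slc17a7, the vesicular glutamate transporter VGLUT1, was called lower in all 4 mutants, at 5.45, 2.7, 3.8 and 2.0 FPKM, against 7.75 in wild type. Irx6, an Iroquois factor of OFF bipolar cells, was called lower only in Nrl-/- (2.25 against 5.8 FPKM), a call that ended with the median of ratios (limma adjusted p = 0.205). Stx3, the syntaxin of ribbon synapses, was called lower in CrxRip/Rip (5.9 against 11.3 FPKM). In Nrl-/- it averaged 14.2 FPKM, called higher only after rescaling (limma adjusted p = 0.00963 and 6.62e-05). Trpm1, the transduction channel of ON bipolar cells, was not called in any mutant. It averaged 0.95, 2.15, 1.1 and 0.75 FPKM in the 4 mutants and 0.8 in wild type. The CrxRip/Rip mean had an SD of 2.475 over 2 samples, so these samples differed widely.

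Relatives of each gene within its protein family did not follow it throughout. Of 15 listed calcium-binding proteins, 7 were in the P21 table, Cabp5 and the calbindin gene Calb1 among them. In CrxRip/Rip 7 of 7 were called lower, beside 663 of all 1497 genes. Cabp4, the photoreceptor synaptic relative of Cabp5, averaged 15.9 FPKM in CrxRip/+, 2.1 in CrxRip/Rip, 12.4 in Crx-/-, 37.4 in Nrl-/- and 74.1 in wild type, called lower in all 4 mutants. Recoverin (Rcvrn) and the guanylate cyclase activator Guca1b were also called lower in all 4. In Nrl-/- Cabp5 was the 1 member of this list called higher, and 3 of 7 were called lower, beside 605 and 476 of all genes. At P2 Rcvrn and Guca1a were called lower in all 3 Crx mutants, as was Cabp5. Guca1a averaged 0.15, 0.05 and 0.75 FPKM there, 2.0 in Nrl-/- and 3.55 in wild type, and its call as lower in Nrl-/- ended with the median of ratios (limma adjusted p = 0.356). Rcvrn averaged 5.3 FPKM in Nrl-/- and 7.0 in wild type, not called, and its difference turned to 0.59 with the median of ratios (limma adjusted p = 0.0207).

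Of 18 LIM homeobox and LIM-only genes, 3 had a row at P2 and 4 at P21. Lmo2, a LIM-only cofactor, was called higher in all 4 mutants at P2, at 3.85 FPKM in CrxRip/+, 9.9 in CrxRip/Rip, 4.8 in Crx-/-, 9.5 in Nrl-/- and 2.0 in wild type. Lhx3, the closest relative of Lhx4, was called higher in the 3 Crx mutants at P2, at 2.0, 4.25 and 3.45 FPKM, against 0.9 in wild type, and averaged 1.55 in Nrl-/-, called there with either rescaling (limma adjusted p = 0.02 and 0.000613). At P21 Lmo1 was called lower in all 4 mutants (1.55 to 4.95 FPKM, against 7.6 in wild type). Isl2 was called higher in CrxRip/Rip and Nrl-/- (2.65 and 1.55 against 1.05 FPKM), the Nrl-/- call ending with either rescaling (limma adjusted p = 0.0663 and 0.158), and Lmo2 in CrxRip/+ and CrxRip/Rip (3.15 and 3.2 against 1.7 FPKM).

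Of 11 protein kinase C genes only Prkca and Prkcz were in the P21 table. Prkcz, an atypical isoform, averaged 9.9 FPKM in CrxRip/+, 8.5 in CrxRip/Rip, 10.1 in Crx-/-, 11.9 in Nrl-/- and 15.5 in wild type, called lower in all 4 mutants. For Pcp2, the GoLoco list of 12 had no other gene in the P2 table. At P21 the GoLoco genes Gpsm2 and Gpsm3 were called lower in all 4 mutants. Gpsm2 averaged 4.65, 4.0, 4.35 and 5.55 FPKM in the mutants in the usual order and 50.2 in wild type. Gpsm1 was called lower in CrxRip/Rip and Crx-/- (18.9 and 17.6 FPKM, against 31.2 in wild type), and in CrxRip/+ it was called only after rescaling (limma adjusted p = 0.0122 and 0.0145), as in Nrl-/- with the median of ratios (limma adjusted p = 0.0112).

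For each gene the 3 genes of the table with the most similar pattern were found by Pearson's r of log2(FPKM + 1) over the 10 samples of an age, among 563 genes at P2 and 1465 at P21. The 10 samples fall into 5 genotypes, so r describes mainly the genotype means. At P2 the genes most like Cabp5 were photoreceptor genes: Guca1a (r = 0.978), the short-wave cone opsin Opn1sw (0.967) and the cone phosphodiesterase subunit Pde6h (0.956). Those most like Lhx4 were the adrenergic receptor gene Adrb1 (0.981), Klhl15 (0.965) and Nhlrc2 (0.961). Those most like Pcp2 were Ly6g5b (0.977), Cpne6 (0.975) and Armcx5 (0.974).

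At P21 the genes most like Cabp5 were Nphs1 (r = 0.97), Ccdc136 (0.961) and the glutamate transporter gene Slc1a7 (0.961), and they differed from the P2 ones. Ccdc136 averaged 30.0 FPKM in CrxRip/+ retina, 14.7 in CrxRip/Rip, 65.3 in Crx-/-, 268 in Nrl-/- and 26.5 in wild type. Those most like Lhx4 were the histone gene H2aw (0.977), Sphkap (0.961) and Ptprg (0.952). Those most like Prkca were the hexokinase gene Hk1 (0.945), the rod phosphodiesterase gene Pde6a (0.944) and Wdr17 (0.937). Pde6a averaged 20.9 FPKM in CrxRip/+, 1.65 in CrxRip/Rip, 45.0 in Crx-/-, 37.7 in Nrl-/- and 488 in wild type, a far wider range than that of Prkca.

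Other cell types were represented unevenly, and their part in the results was not tested. No amacrine marker of 11 was in either table. Ganglion cell markers gave 1 of 11 genes at each age. Of 9 horizontal cell markers 4 were in the P21 table, and their sum was 163.4 to 170.7 FPKM in CrxRip/+ retina, 158.4 to 191.3 in CrxRip/Rip, 181.7 to 204.2 in Crx-/-, 327.1 to 327.6 in Nrl-/- and 144.5 to 150.6 in wild type, highest in Nrl-/- as for Cabp5 and Lhx4. Of 10 pigment epithelium markers 6 were in the P21 table and summed to 41.6 to 47.9 FPKM in CrxRip/+, 43.6 to 59.7 in CrxRip/Rip, 48.1 to 80.2 in Crx-/-, 37.3 to 50.4 in Nrl-/- and 9.4 to 20.5 in wild type. The 2 of 11 Müller glia markers in that table summed to 18.8 to 25.4 FPKM in CrxRip/+, 12.8 to 16.0 in CrxRip/Rip, 28.3 to 30.0 in Crx-/-, 10.7 to 12.2 in Nrl-/- and 6.1 to 6.6 in wild type. The 2 of 10 microglia markers summed to at most 12.9 FPKM in any mutant sample and 4.6 in wild type, and the 3 of 12 progenitor and cell cycle genes to at most 22.8 and 16.6 FPKM.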

How the data were processed

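RNA of 20 retinal samples was sequenced by the authors as directional libraries, with groups read from the titles. A deposited table per age holds FPKM per sample, the authors' mean FPKM per genotype, and for pairs of genotypes the authors' p-values (adjusted) and log2 fold changes, per the file headers. The authors used DESeq, per the submitters' processing notes. Their aligner, counter, build and annotation release: not given in the sources used here. The authors' threshold was read from the deposited values and tested on every row. Positions and promoters are from GENCODE and RefSeq on GRCm38, with 563 of 566 and 1485 of 1497 transcript accessions matched, and old symbols were updated for 34 and 93 genes.

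From the FPKM, log2(FPKM + 1) was fitted with limma 3.58.1 in R 4.3.3, per age, over 10 samples with 1 term per genotype and a variance trend (5 residual and 2.95 prior degrees of freedom at P2, 5 and 3.06 at P21). There were 10 comparisons per age, two-sided, called at an adjusted p under 0.05. The script was tested on simulated data. A few list genes enter the counts but are not reported here by name. Depth is unknown, so no counting interval was computed. The genes and the gene lists were chosen with earlier results of these data known. Named were the 4 genes and the 3 most similar genes per gene. Of the bipolar lists, up to 8 called genes per age with the largest change against wild type were named. Up to 2 uncalled ones with the highest mean FPKM were added. Per family list, up to 3 called genes per age were named by the size of the change. Alternatives were a pseudocount of 0.1, a mean of at least 1 FPKM, only the 2 genotypes compared, no variance trend, median-of-ratios scaling, a replicate block, each sample left out, and, chosen after seeing the data, the scaling implied by the authors' fold changes.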

Additional observations from a re-analysis of the deposited data

Results flagged for a closer look

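For Cabp5 in 3 mutants and Lhx4 in 1, both mutant samples were above or both below the wild-type pair at P2 and the opposite at P21. The share of all genes with such an opposite pattern is not given here. With 2 samples in either group, exact permutation can give no p under 0.33 (two-sided). The ages were in separate tables, so the difference between ages was not tested. Cabp5 in CrxRip/+ retina differed from wild type by -1.63 on the log2(FPKM + 1) scale at P2 and by 0.42 at P21. The P21 call was lost in 12 of 17 alternative settings. Cabp5 in Crx-/- differed by -0.95 at P2 and 0.50 at P21, and its P21 call was lost in 5 of 17. Cabp5 in Nrl-/- differed by -0.25 at P2 and by 2.00 at P21. The P2 value was not called and turned to 0.57 with the median of ratios. Lhx4 in CrxRip/+ differed by -0.08 at P2 and 0.20 at P21, neither of them called, and the P21 value was 0.01 with the scaling implied by the authors' fold changes. Wild-type Cabp5 itself measured 3.6 and 3.1 FPKM at P2, and 32.5 and 45.6 FPKM at P21.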

How the results depend on the processing

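The counts of called differences of the 4 genes stayed within 1.5 times of the reported ones in every setting run. Against wild type the count was 7 at P2 and 10 at P21, and between mutants 14 and 13. With 1 sample left out they ranged from 6 to 8, 8 to 10, 12 to 14 and 12 to 13. In the other settings they ranged from 6 to 8, 8 to 10, 14 to 15 and 12 to 13. Called in all 17 alternative settings were 6 of 7 and 6 of 10 differences from wild type, and 12 of 14 and 11 of 13 between mutants. Cabp5 in Nrl-/- against wild type at P2 reversed to 0.57 with the median of ratios and was -0.12 with the authors' scaling. The cause was not tested.

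Replicate numbers were checked as a pairing. Same-numbered samples of different genotypes deviated together with r between -0.24 and 0.33 at P2 and between -0.30 and 0.23 at P21. At either age 4 of 10 pairs were over 0.1. No reference for r was used here, so whether same-numbered samples share more than a number cannot be told. With the replicate block the counts were 6 and 9 against wild type and 14 and 13 between mutants. The block ended the calls of Pcp2 in Crx-/- at P2 (limma adjusted p = 0.0523) and Cabp5 in CrxRip/+ at P21 (limma adjusted p = 0.065).

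Counts over all genes, which give the background shares, moved by over 1.5 times in 17 cases. With 1 sample left out at P2, CrxRip/+ against wild type had 55 calls in place of 93 (without wild-type replicate 2). Crx-/- against wild type had 72 to 92 in place of 169 (each of its 4 samples), CrxRip/Rip against CrxRip/+ 51 in place of 80 (CrxRip/+ replicate 2), CrxRip/+ against Crx-/- 78 to 93 in place of 162 (each of its 4 samples) and CrxRip/Rip against Crx-/- 136 in place of 234 (Crx-/- replicate 2). With only the 2 genotypes in the fit, CrxRip/Rip against CrxRip/+ had 43 in place of 80 at P2 and 278 in place of 703 at P21, and CrxRip/Rip against Crx-/- 133 in place of 234 at P2. With the median of ratios at P2, Nrl-/- against wild type had 284 in place of 473, Crx-/- against Nrl-/- 261 in place of 446 and CrxRip/+ against Nrl-/- 308 in place of 485.

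The tables hold only genes selected for differences in these samples, which the median of ratios does not allow for. The scaling implied by the authors' fold changes lowered mutant values against wild type at P21 by 0.22 for CrxRip/+, 0.23 for CrxRip/Rip, 0.23 for Crx-/- and 0.11 for Nrl-/- (log2). Rounding to 1 decimal limits values under 1 FPKM, such as Cabp5 in the CrxRip genotypes at P2.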

Other observations

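Further bipolar list genes in the P21 table are outside the naming rule, and they were picked with their values known. Kcng4, a potassium channel subunit, was called higher in all 4 mutants, at 12.8 FPKM in CrxRip/+ retina, 12.5 in CrxRip/Rip, 8.05 in Crx-/-, 8.25 in Nrl-/- and 5.15 in wild type. Gnb5, the partner of RGS proteins, was called lower in the 3 Crx mutants (111 to 130.0 FPKM) and averaged 194 in Nrl-/- and 229 in wild type.

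Gabrr3, a GABA receptor subunit, was split among the Crx mutants: it was called lower in CrxRip/+ and CrxRip/Rip (6.4 and 4.95 FPKM), called higher in Crx-/- (18.5 FPKM), and averaged 10.4 in Nrl-/- and 8.8 in wild type. Prdm8, a zinc-finger factor needed for rod bipolar survival, was called lower in CrxRip/Rip (9.95 FPKM) and higher in Nrl-/- (27.4 FPKM), against 16.4 in wild type. Slc17a7 was called lower in CrxRip/Rip and Crx-/- (209 and 169 FPKM), against 365 in wild type. Stx3 was called lower in the 3 Crx mutants (23.1 to 38.7 FPKM) and averaged 48.6 in Nrl-/- and 49.5 in wild type. Car8, Sebox and Cacna1s were called lower in CrxRip/Rip, at 6.15, 12.8 and 1.3 FPKM, against 13.1, 28.2 and 2.6 in wild type. Car8 and Sebox were also called lower in Crx-/- (10.6 and 20.3 FPKM), and Cacna1s in Nrl-/- (1.5 FPKM).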
